A study of Rattus norvegicus with 2 samples.

Results

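The 10 genes described here encode the sensors, transcription factors and effectors of the unfolded protein response (UPR), which is switched on by stress of the endoplasmic reticulum (ER). They were found by their gene symbols in the annotation of the array, and all 10 were measured, each by 1 transcript cluster, among 15037 genes with a name and 23188 transcript clusters in all. A transcript cluster is the set of short probes that the array holds for 1 transcript unit. RNA came from the thymus of male Sprague-Dawley rats, 8 weeks old, that were given 20 mg/kg/day cocaine hydrochloride into the tail vein for 7 days, and of male rats of the same strain and age that were given saline as the control. They were killed on the day after the last dose. The labels call the control unstimulated, although the note on treatment reads the same for both samples. Each group had 1 Clariom S array, so no replicate spread, no test and no p can be given. Neither the labels nor the methods say whether its RNA came from a single rat or from a pool.

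Proteins that are to be secreted or placed in a membrane are folded in the ER. When unfolded proteins pile up there, the chaperone BiP is drawn away from the sensors IRE1, PERK and ATF6, and each of them starts a branch of the response. IRE1 splices the mRNA of Xbp1, PERK phosphorylates the translation factor eIF2α and so favors the translation of Atf4, and ATF6 is cut in the Golgi to free a transcription factor. Together they raise chaperones and ER-associated degradation (ERAD), and when the stress lasts, the PERK branch induces CHOP, which is tied to cell death. Antibody-secreting plasma cells are known for their need of XBP1. An array of this kind measures the amount of mRNA, so phosphorylation, cleavage of ATF6 and the splicing of Xbp1 were not measured.

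Both arrays had the same median log2 intensity, 6.75, after quantile normalization, which gives the 2 arrays the same distribution. The differences below are cocaine minus control on the log2 scale, and the central 95% of them over all transcript clusters ran from -0.57 to 0.55. As deposited, 27.2% of transcript clusters had an identical value for both samples, and 2 of the 10 UPR genes, Hspa5 and Ppp1r15a, were among them. The labels name thymus as the source and spleen in the note on RNA extraction. Of 9 measured thymocyte markers 8 lay above the 90th percentile on both arrays, while none of 3 B cell markers and none of 5 plasma cell markers did. In a whole organ, fewer cells of a type and less RNA per cell cannot be told apart.

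No gene of the UPR differed by more than 1.5-fold between the cocaine and the control thymus. Their differences ran from -0.56 (Herpud1) to 0.34 (Atf4), and the median of the 10 was -0.02, beside 0.01 over all transcript clusters. Taken without sign, the median difference was 0.25 for the 10 genes and 0.09 for all transcript clusters. A difference at least as large as that of the 10 was held by 23.8% of all transcript clusters, and this contrast was not tested. The sensors and factors did not share a direction. Atf4 was higher in the cocaine thymus by 0.34, while the PERK gene Eif2ak3 was lower by 0.40 and the CHOP gene Ddit3 was lower by 0.31. BiP itself, encoded by Hspa5, held 1 and the same deposited value on both arrays.

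**Figure D1:**
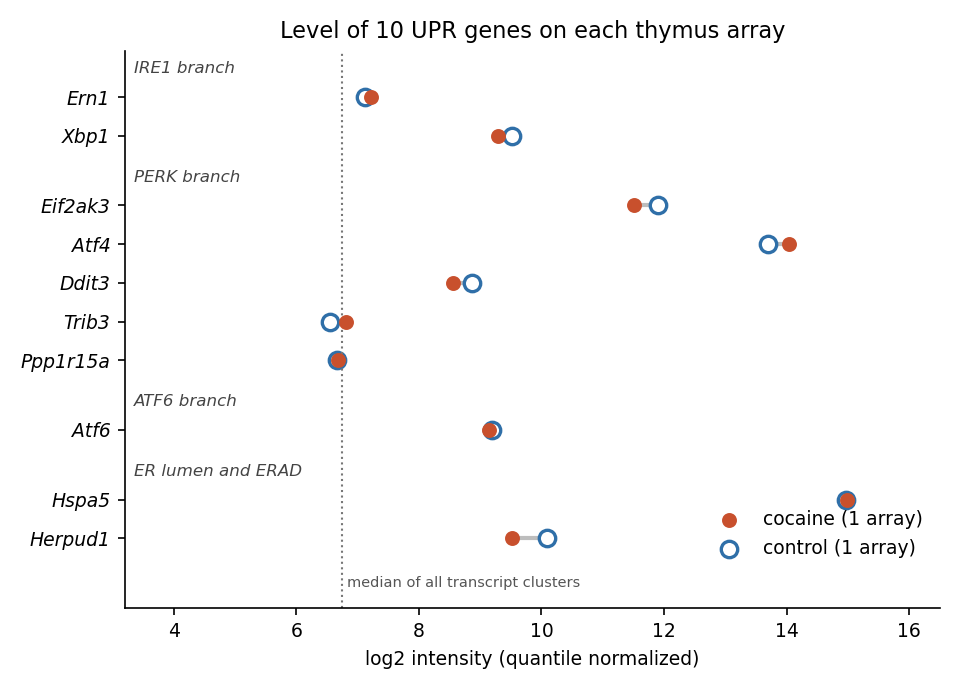
Log2 intensity (x axis, after quantile normalization) of the 10 UPR genes in the cocaine thymus (filled points) and the control thymus (open points), 1 array each, ordered by branch, with the median of all transcript clusters as a dotted line. The points of Hspa5 and Ppp1r15a nearly coincide, and the widest gap is that of Herpud1 (9.52 with cocaine, 10.08 in the control).

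Of the IRE1 branch, the sensor gene Ern1 had a log2 intensity of 7.23 in the cocaine thymus and 7.13 in the control thymus, a difference of 0.10. It sat near the middle of the array, at percentile 55.5 with cocaine and 54.6 in the control. A percentile ranks the brightness of a probe set among all others and is not an amount of RNA, since probe sets differ in how well they hybridize. Xbp1, whose spliced mRNA encodes the transcription factor of this branch, was 9.29 with cocaine and 9.52 in the control, a difference of -0.24. The 1 transcript cluster gives the total of Xbp1 and does not separate its spliced from its unspliced form.

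The PERK branch held differences of both signs. Eif2ak3, the gene of the sensor kinase PERK, was 11.51 in the cocaine thymus and 11.91 in the control thymus, 1.32-fold lower. Atf4, whose protein drives genes of amino acid supply and of the stress response, was 14.03 with cocaine and 13.70 in the control, 1.26-fold higher, at percentile 96.7 with cocaine and 96.1 in the control. Atf4 was thus among the brighter transcript clusters on both arrays. Ddit3 encodes CHOP, a factor induced by ATF4, and was 8.56 with cocaine and 8.87 in the control, 1.24-fold lower. Trib3, a pseudokinase gene induced by ATF4 and CHOP, was 6.81 with cocaine and 6.54 in the control, a difference of 0.27. Ppp1r15a encodes GADD34, the phosphatase subunit that ends the phosphorylation of eIF2α, and its deposited intensity was 101.4 on both arrays. Trib3 and Ppp1r15a were the dimmest of the 10 genes, between percentiles 47.2 and 50.8 on either array, and only they changed places in the order of intensity between the arrays.

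Of the ATF6 branch, Atf6 was 9.14 in the cocaine thymus and 9.20 in the control thymus. Its difference was -0.06 and had no stable sign, since it was 0.03 with each array centred on its median and 0.0063 on the values as deposited. Hspa5, the gene of BiP, was 14.98 with cocaine and 14.97 in the control. It was at percentile 98.0 on both arrays, with a deposited intensity of 32198 on each. The difference of 0.01 that it had afterwards came from quantile normalization, and lowess centring gave -0.01.

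Herpud1 showed the largest difference of the 10 genes. HERPUD1 is a membrane protein of the ER that takes part in ERAD, and its gene is known as a sensitive target of the UPR. It was 9.52 in the cocaine thymus and 10.08 in the control thymus, 1.47-fold lower, at percentile 75.3 with cocaine and 79.5 in the control. Among the 1000 transcript clusters closest to it in mean intensity, the central 95% of differences ran from -0.53 to 0.52, and Herpud1, at -0.56, lay just outside. It was the only one of the 10 genes outside such a local range, as were 1147 of the 23188 transcript clusters. With each array centred on its median the difference was -0.47, after lowess centring -0.53, and as deposited -0.50.

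**Figure D2:**
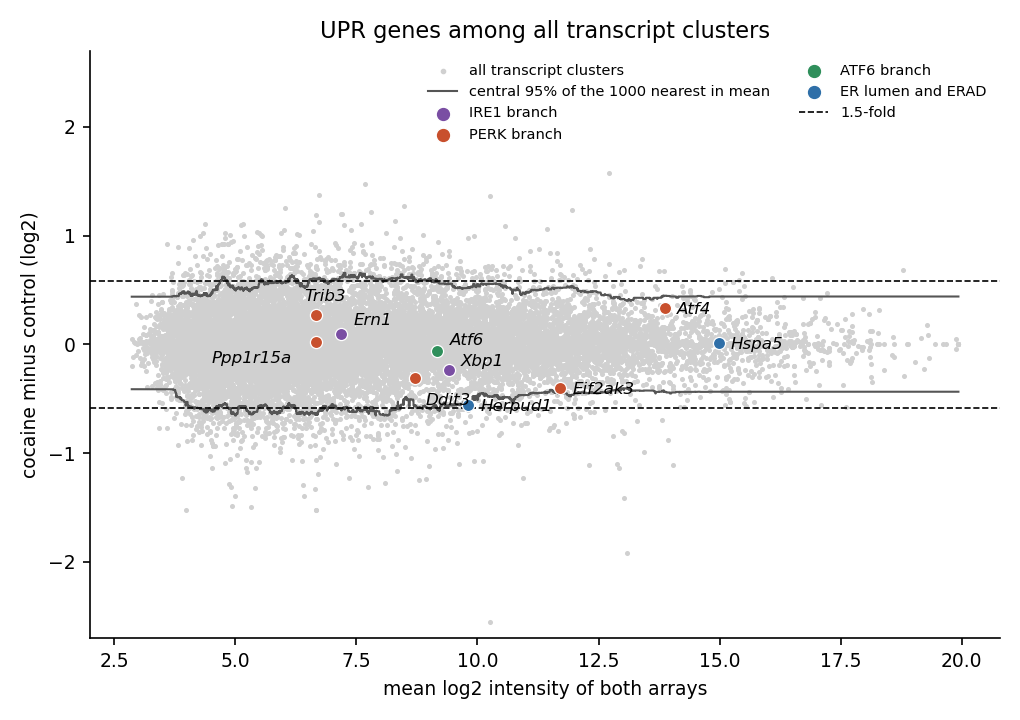
Cocaine minus control log2 difference (y axis) against mean log2 intensity of both arrays (x axis) for all 23188 transcript clusters (grey) and the 10 UPR genes (colored by branch), with the central 95% of the 1000 transcript clusters nearest in mean (solid lines) and the 1.5-fold limit (dashed lines). All 10 genes lie within 1.5-fold, and Herpud1 (-0.56) lies just below the lower solid line.

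Read against all transcript clusters, the counts were as follows. Past 1.5-fold, none of the 10 UPR genes lay on either side in the cocaine thymus, where 1.98% of all transcript clusters were higher and 2.29% were lower. At such rates 10 genes are too few for a count of 0 to set them apart. Past a smaller log2 limit of 0.32, 1 of the 10 was higher (Atf4), with 8.22% of all transcript clusters higher. In the other direction 2 of the 10 were lower (Eif2ak3 and Herpud1), with 8.77% of all transcript clusters lower. Of the 8 genes without identical values as deposited, 4 were higher and 4 were lower there.

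Some of these genes are known to be switched on through short elements near their start. The stretches that hold such elements are shown here, although no element was found in all of the genes. The promoters were taken from RefSeq (rat assembly GRCr8), 250 bases before to 50 bases after each start, and were found for 8 of the 10 genes, all but Ern1 and Atf6. On both strands, a script searched for the ER stress response element (ERSE), which ATF6 binds together with NF-Y, written as CCAAT, 9 bases of any kind and CCACG. The other elements were ERSE-II (ATTGG, 1 base of any kind, CCACG), the UPR element (UPRE, TGACGTGG), the C/EBP-ATF response element of ATF4 and CHOP (CARE, TGATG, 1 base of any kind, AA) and the cAMP response element (CRE, TGACGTCA). A match is a description of the letters and does not show that a factor binds there. No matches overlapped within these promoters. Matches were found in 5 of the 8 promoters and are in capitals, with the stretch read 5′ to 3′ along the gene. The promoters of Eif2ak3, Atf4 and Ddit3 held none of the 5 elements in this window.

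Hspa5, chr3:38452953-38453011, plus strand, ERSE from -43 to -25: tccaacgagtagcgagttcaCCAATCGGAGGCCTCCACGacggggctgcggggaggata
Xbp1, chr14:84604538-84604596, plus strand, ERSE from -65 to -47: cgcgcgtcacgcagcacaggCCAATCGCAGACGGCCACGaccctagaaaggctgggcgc
Herpud1, chr19:10614801-10614911, minus strand, CARE from -184 to -177 on the opposite strand and ERSE-II from -124 to -114: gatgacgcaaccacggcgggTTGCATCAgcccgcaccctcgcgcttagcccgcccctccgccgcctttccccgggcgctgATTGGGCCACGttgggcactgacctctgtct
Trib3, chr3:161275527-161275574, minus strand, CARE from -21 to -14 on the opposite strand: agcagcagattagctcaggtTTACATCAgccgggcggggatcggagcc
Ppp1r15a, chr1:105139635-105139682, minus strand, CRE from -66 to -59: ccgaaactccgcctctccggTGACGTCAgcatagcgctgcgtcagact

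The ERSE was rare in the rat promoters of the table, with 22 of 33469 (0.0657%), and ERSE-II was found in 17 (0.0508%). Among the UPR promoters 2 of 8 held an ERSE and 1 held an ERSE-II. The CARE was more common, in 3.98% of all promoters and 2 of the 8, and the CRE was in 1.83% and in 1 of the 8. The UPRE was in 0.595% of all promoters and in none of the 8.

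Genes with the same element did not share a difference between the 2 arrays. Hspa5 and Xbp1 both held an ERSE, and their differences were 0.01 and -0.24, while Herpud1, which held ERSE-II, was at -0.56. Trib3 and Herpud1 both held a CARE, and Trib3 was higher by 0.27. Over all promoters, 27 genes that were measured on the arrays had an ERSE or ERSE-II, a set formed after the values of the UPR genes had been seen. None of the 27 was higher and 1 was lower by more than 1.5-fold (3.70%), beside 2.09% higher and 2.08% lower of the 12435 measured genes with a promoter. The median of the 27 was -0.06, became 0.02 after median centring and was 0 as deposited, so it had no stable sign. The lower gene was Derl3, a dim gene of ERAD, at 5.98 in the cocaine thymus and 6.57 in the control thymus. The ER chaperone gene Calr was 14.90 with cocaine and 15.35 in the control, whereas Hsp90b1, which encodes the ER form of Hsp90, was 12.71 with cocaine and 12.52 in the control. Creld2, another ER stress gene, was 9.07 with cocaine and 8.85 in the control. Of the 12 measured genes of the UPR and ER lists with either element, only Creld2, Hsp90b1 and Hspa5 lay above 0 after quantile normalization. The others lay below 0, among them Ero1b, which held an ERSE, at -0.35. Of these others, Dnajb11 and Dnajc3 (both -0.07) had identical deposited values, like Hspa5. Hyou1, at -0.01, was 0.03 as deposited, so the signs of these genes came from the normalization. As deposited, 8574 of all transcript clusters were higher, 8314 were lower and 6300 were identical.

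**Figure D3:**
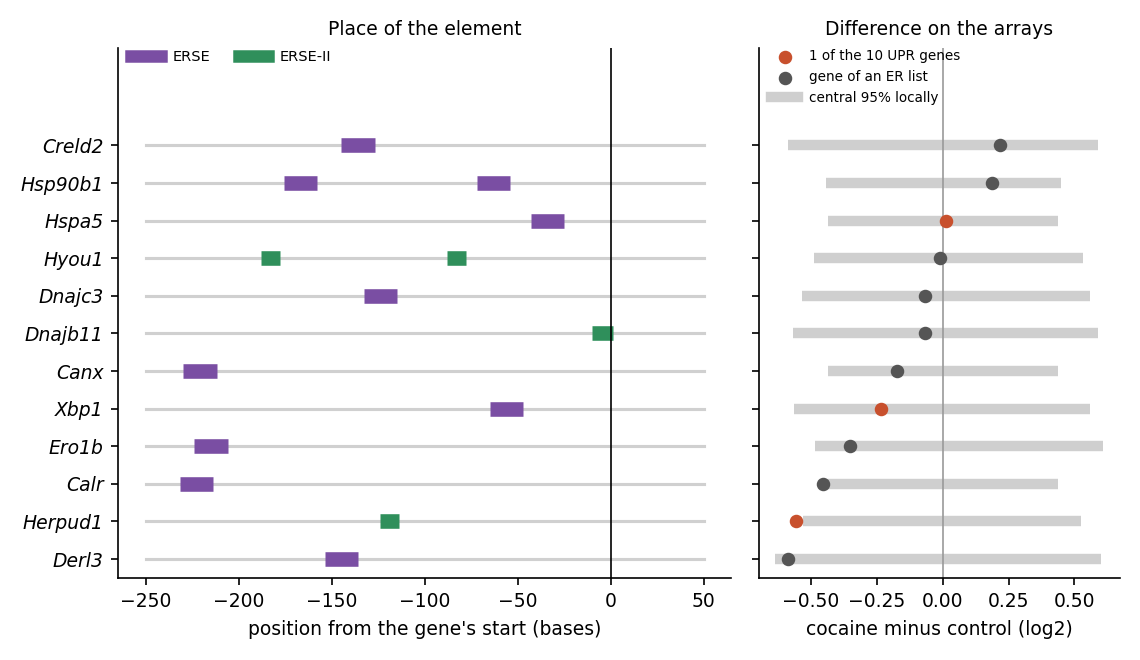
The 12 measured genes of the UPR and ER lists with an ERSE or ERSE-II, ordered by their difference: place of each element from the start of the gene in bases (left) and cocaine minus control log2 difference (right, with the central 95% of the 1000 transcript clusters nearest in mean as grey bars). The points run from 0.22 for Creld2 to -0.59 for Derl3, with Hspa5 at 0.01 and Herpud1 at -0.56.

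Around the 10 genes, 9 lists of other genes of the ER stress response were described, with 130 measured of 141 genes. Of these, 6 were higher by more than 1.5-fold (4.62%, beside 1.98% of all transcript clusters), 4 were lower (3.08%, beside 2.29%) and 120 lay within 1.5-fold. Their median difference was -0.01. The 6 higher genes were Sil1, Txndc5, Selenos, Edem3, Traf2 and Bak1, and the 4 lower genes were Ddit4, Derl3, Ern2 and Casp12. The signs of list medians this close to 0 depended on the scaling. With median centring those of all 9 lists and of the heat shock list were above 0, between 0.02 and 0.10. That scaling put every gene with identical deposited values, such as Hspa5, at 0.0224. As deposited, the median difference over all transcript clusters was 0, so a list median of 0.0224 there equals that of the whole array. The 10 genes past 1.5-fold all kept their side of that limit with each array centred on its median, after lowess centring and on the values as deposited. Traf2 was singled out on these arrays by the study, so its place here is not independent.

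The chaperones and folding enzymes of the ER, which ATF6 induces, lay on both sides of 0. Past 1.5-fold, 2 of 17 measured genes were higher and none lower, beside 1.98% higher and 2.29% lower of all transcript clusters. The median was -0.01, or 0.05 after median centring and 0.03 as a mean. Sil1 encodes the exchange factor that releases ADP from BiP and was 7.62 in the cocaine thymus and 6.94 in the control thymus, 1.59-fold higher. Txndc5, a disulfide isomerase gene, was 10.53 with cocaine and 9.91 in the control, 1.54-fold higher. Both lay above the local range of differences. Calr, at -0.45, lay below its own, which began at -0.44, and it and the oxidase gene Ero1b, at -0.35, had the largest differences on the other side.

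Targets of XBP1, which let proteins into the ER and carry them onward, all lay within 1.5-fold. The 13 measured genes had a median of -0.04 and a mean of 0.01. As deposited, 6 of them were higher, 1 was lower and 6 were identical, and the median was 0. Dnajb9, which encodes an ER cochaperone that is a known target of XBP1, was 8.38 in the cocaine thymus and 8.11 in the control thymus. Sec61g, a subunit of the channel into the ER, was 11.56 with cocaine and 11.32 in the control, and the translocon gene Ssr1 was 12.86 with cocaine and 13.01 in the control. Sec23b, of the coat that carries cargo out of the ER, was 10.91 with cocaine and 10.78 in the control.

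Among the targets of ATF4 and of CHOP, no gene was higher by more than 1.5-fold. The list had 26 measured genes, of which 25 lay within the limit and 1 was lower. Over all transcript clusters, 1.98% were higher and 2.29% were lower. As deposited, 13 of the 26 were higher, 9 were lower and 4 were identical. Its median was 0.03 and had no stable sign, since it was -0.02 with either filter on dim transcript clusters, and the mean was -0.05. The lower gene was Ddit4, which encodes the mTORC1 inhibitor REDD1, at 10.63 in the cocaine thymus and 11.35 in the control thymus, 1.65-fold lower and below its local range. Sesn2, another stress gene upstream of mTORC1, was 7.83 with cocaine and 8.29 in the control. Slc7a11 encodes the cystine carrier of the xCT system and was 17.36 with cocaine and 17.73 in the control, above percentile 99.6 on both arrays. The asparagine synthetase gene Asns, a classical target of ATF4, and Atf3 had identical deposited values. Cebpg, a C/EBP gene whose protein can pair with ATF4, was 10.24 with cocaine and 10.53 in the control. The largest difference above 0 in this list was that of Chac1 (0.52), at 5.10 with cocaine and 4.58 in the control. Chac1 was dim, with a mean below the 25th percentile.

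The machinery of eIF2α gave the narrowest range of these lists. All 13 measured genes lay between -0.09 and 0.20, and 8 of them held identical deposited values. Ppp1r15b, the constitutive counterpart of Ppp1r15a, was 10.83 in the cocaine thymus and 10.64 in the control thymus. Of the other eIF2α kinases, Eif2ak2 (PKR) differed by 0.12 and Eif2ak1, the kinase that heme controls, by -0.09. Eif2b3, a subunit of the exchange factor of eIF2, differed by -0.07 and was identical as deposited.

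In ERAD, the pathway of Herpud1, genes differed in both directions. Of 19 measured genes 2 were higher and 1 was lower by more than 1.5-fold, beside 1.98% and 2.29% of all transcript clusters. The median was 0.02, and none of the 19 held identical values as deposited. Selenos, a selenoprotein that links the degradation channel to the ATPase VCP, was 10.87 in the cocaine thymus and 10.22 in the control thymus, 1.56-fold higher. Edem3, which trims mannose from misfolded glycoproteins, was 11.99 with cocaine and 11.40 in the control, 1.51-fold higher. Man1b1, another mannosidase gene of this step, was 11.83 with cocaine and 11.36 in the control. Derl3, given above, was the lower gene and lay within its local range of differences.

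**Figure D4:**
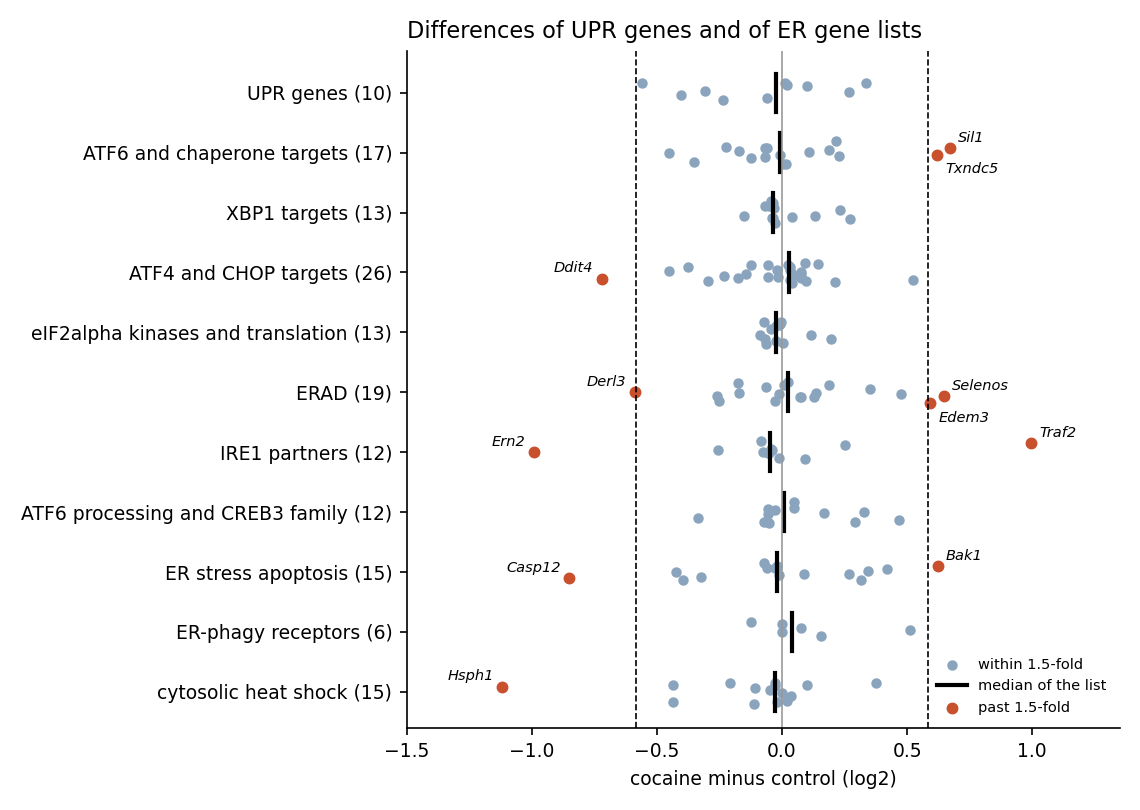
Cocaine minus control log2 difference (x axis) of each measured gene of the UPR, of 9 other ER lists and of the cytosolic heat shock list, with the number of measured genes in parentheses, the median of each list as a black bar and the 1.5-fold limit as dashed lines. The 11 named genes lie past 1.5-fold, from -1.12 (Hsph1) to 0.99 (Traf2), and none of them is among the 10 UPR genes.

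Among the ER lists, that of IRE1 partners, which also holds the related sensor gene Ern2, had the widest differences on either side. Ern2, the IRE1β gene known from mucosal epithelia, was 5.43 in the cocaine thymus and 6.43 in the control thymus, 1.99-fold lower, at percentile 29.2 with cocaine and 45.6 in the control. Traf2, the adaptor through which IRE1 reaches JNK, was 10.42 with cocaine and 9.43 in the control, 1.99-fold higher. The other 10 of the 12 measured genes lay within 1.5-fold. Next by size came Hsp90ab1, a cytosolic Hsp90 gene, at 15.69 with cocaine and 15.95 in the control. The adaptor gene Nck1 was 10.28 with cocaine and 10.03 in the control.

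The proteases that free ATF6, and factors built like it, all lay within 1.5-fold, with 12 measured genes and a median of 0.01, which was -0.03 with the filter at the 25th percentile and -0.05 with that at the median. Mbtps1, the site-1 protease, was 11.98 in the cocaine thymus and 11.69 in the control thymus. Crebzf, a partner of membrane-bound factors of the CREB3 family, was 11.64 with cocaine and 11.17 in the control. Nfyc, a subunit of the NF-Y complex that sits on the CCAAT of the ERSE, was 11.56 with cocaine and 11.89 in the control. Creb3l2, a membrane-bound factor related to ATF6, was 6.96 with cocaine and 6.63 in the control.

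Genes tied to death by lasting ER stress included 1 higher and 1 lower by more than 1.5-fold among 15 measured. Of all transcript clusters, 1.98% were higher and 2.29% were lower. Casp12, a caspase at the ER membrane of rodents, was 6.93 in the cocaine thymus and 7.79 in the control thymus, 1.80-fold lower. Bak1, a pore-forming gene of the Bcl-2 family, was 9.56 with cocaine and 8.94 in the control, 1.54-fold higher. Bcl2l11, the BIM gene that CHOP can induce, was 9.39 with cocaine and 9.82 in the control. The calpain gene Capn2 was 8.33 with cocaine and 7.91 in the control. The 6 measured receptors of ER-phagy, the autophagy of the ER, lay within 1.5-fold, with the largest difference at Tex264 (8.09 with cocaine and 7.58 in the control). Of the others, Atl3 differed by 0.16, Retreg1 by -0.12 and Calcoco1 by 0.08.

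Outside the ER, 1 of the 15 measured genes of the heat shock list was lower by more than 1.5-fold and none was higher. Of all transcript clusters, 2.29% were lower and 1.98% were higher. The lower gene was the Hsp110 gene Hsph1, at 8.44 in the cocaine thymus and 9.56 in the control thymus, 2.17-fold lower. The list is named cytosolic, although it also holds the mitochondrial chaperonin genes Hspd1 and Hspe1. The median of this list was -0.03, beside -0.02 for the 10 UPR genes. Both were 0.02 with median centring and 0 as deposited. The mitochondrial chaperonin gene Hspe1 was 14.16 with cocaine and 14.60 in the control. Hspa4l, another Hsp110 gene, differed by 0.38 and Hsf1, the factor that drives this response, by -0.21. The difference between these lists was not tested.

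Markers of other cell types were read on the same arrays, where 1.98% of all transcript clusters were higher and 2.29% lower past 1.5-fold. Plasma cells, which carry much Xbp1, had 5 measured markers, of which none was past 1.5-fold, and their summed linear intensity was 449.5 in the cocaine thymus and 432.0 in the control thymus. These markers were dim, with 1 of the 5 above the median on both arrays, so the sum is not an amount of plasma cells. Past 1.5-fold, 2 of 5 markers of adipocytes were lower, Fabp4 and Adipoq, which the study had also singled out on these arrays, and Lpl was at -0.20, Cidec at 0.29 and Lep at 0.04. The adipocyte sum was 4319 with cocaine and 8803 in the control, of which Fabp4 made up most. Erythroid markers went both ways, with Hba-a1 at -0.76 and Slc4a1 at -1.29 lower by more than 1.5-fold, Alas2 at 0.54 and Klf1 at 0.13. The erythroid sum was 2409 with cocaine and 4009 in the control and was nearly all Hba-a1. Slc4a1 and Klf1 were dim. Slc4a1 was at percentiles 7.92 with cocaine and 30.5 in the control, and Klf1 at 0.591 with cocaine and 0.276 in the control. Of 5 macrophage and dendritic markers 1 was higher, Csf1r, and the sum, mostly Cd68, was 2983 with cocaine and 2779 in the control. None of 3 B cell, 4 thymic epithelial and 6 fibroblast and endothelial markers passed 1.5-fold. The sums over 9 thymocyte markers were 1245988 with cocaine and 1307450 in the control. The part of these cells in the differences of Herpud1 and the other genes was not tested.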

How the data were processed

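Thymus RNA of cocaine and of control rats was measured on 1 Clariom S array per group. The TAC software was used by the authors, and the deposited values are linear intensities, 1 for each transcript cluster. Software version, normalization and genome build were not given in the sources used here. Of 24834 rows, 1646 control rows were left out. Intensities were taken to log2 after quantile normalization of the 2 arrays, which changed log2 differences by at most 0.102. Genes were named from the platform annotation, and the brightest of several transcript clusters stood for a gene. With 1 array per group no test was run, precision is limited by the number of arrays, and each fold divides the brighter by the dimmer value.

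The 10 genes, the lists and the elements searched were chosen with earlier results of these data known. All 10 genes were named, and of each other list the genes past 1.5-fold and those with the largest differences, up to 4, among genes whose mean reached the 25th percentile. Asns, Atf3, Chac1, Hsp90b1 and Creld2 were named outside this rule after their values were seen. The local range was taken over the 1000 transcript clusters nearest in mean. Other settings were centring on the median, lowess (fraction 0.3), the values as deposited, filters on dim transcript clusters, and limits of log2 0.32 and of 2-fold. Promoters came from RefSeq (GRCr8), and the set of ERSE genes was added after the data were seen. Steps were tested on simulated data. The tools were pandas 2.3.3, numpy 2.4.6, matplotlib 3.10.9 and statsmodels 0.14.6 under Python 3.11.15.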

Additional observations from a re-analysis of the deposited data

How the results depend on the processing

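No paired analysis was possible because cocaine and control had a single array each, and no replicate could be left out. No UPR gene passed 1.5-fold under the other 3 scalings, a filter at the median of mean intensity or at the 25th percentile, or the mean of several transcript clusters. At a log2 limit of 0.32, 1 was higher and 2 were lower, with 1907 and 2033 of all transcript clusters, and at 2-fold those were 35 and 52. The higher gene, Atf4, was at 0.3152 after lowess centring, which is below that limit (0.3219 unrounded). The counts over all transcript clusters were 244 higher and 227 lower with the dimmer transcript clusters left out at the median, where fewer were counted, and 311 higher and 317 lower with 1 named transcript cluster per gene. The median of the UPR genes was -0.02, and it was 0.0224 with median centring and 0 as deposited. Their mean was -0.0835. The median was -0.15 (-0.1476) with the filter at the median, which leaves out Trib3 and Ppp1r15a. It was also -0.15 without the 2 genes of identical values, a setting added after the data were seen. The signs of Hspa5 and Atf6 depended on the scaling, while those of the other 7 genes with different deposited values did not. Between scalings, no difference of a UPR gene moved by more than 0.09. Of 70 other values of list medians, 21 moved by more than the robust SD of all differences over the root of the list's size, and the cause was not tested.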

Other observations

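Genes with identical values on both arrays were unevenly spread over these lists and over the array. They made up 61.5% of the 13 genes of the eIF2α machinery, 6 of the 12 genes around ATF6 processing and 46.2% of the 13 XBP1 targets, but none of the 19 ERAD genes and 15.4% of the 26 targets of ATF4 and CHOP, beside 27.2% of all transcript clusters. By deciles of mean intensity, the share was 33.6% in the dimmest and 18.1% in the brightest. Of the control rows of the array, identical values were held by 65.1% of 63 ERCC rows and 74.2% of 31 AFFX rows, but by 2.51% of the 1552 other control rows. Any gene in such a row reads as a difference of 0 as deposited, so that of Hspa5, the usual marker of ER stress, is the same number given for both samples.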
